A study of Arabidopsis thaliana with 9 samples.

Results

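The genes followed here are 6 regulators of leaf margin and leaf blade growth, each picked by its AGI identifier: LMI1 (AT5G03790), JAG (AT1G68480), NUB (AT1G13400), WOX1 (AT3G18010), PRS (AT2G28610) and EPFL2 (AT4G37810). All 6 were found among the 33602 gene models of each count file. Shoots of Arabidopsis thaliana, ecotype Col0, gave the RNA: aerial organs of plants aged 21 days, raised untreated on soil at 21 °C and 65% humidity with 8 h of light and 16 h of dark. The 9 libraries comprise 3 genotypes with 3 libraries each. CUC2gm-4 is named as a genotype and not described further, and a similar name is in use for a transgenic line with a CUC2 gene that the microRNA miR164 cannot cleave. The others are cuc2-3, a mutant allele of CUC2, and wild type (WT). The series is about how CUC transcription factors act during leaf development, and its design text calls both lines knockouts. Whether the 3 replicates of a genotype were separate sets of plants is not stated, so the p-values reflect library-to-library spread that may be technical.

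The serrated edge of an Arabidopsis leaf forms as teeth grow out between sinuses in which the NAC factor CUC2 restrains growth. EPFL2 is a secreted cysteine-rich peptide of the EPF/EPFL family that acts on receptor kinases of the ERECTA family in tooth growth. LMI1 is a homeodomain-leucine zipper factor known from floral meristem identity and from leaf margins and stipules. JAG and its paralogue NUB are zinc finger factors that keep organ tissue growing, and WOX1 and PRS (also called WOX3) are homeobox factors that act together at the margin to widen the blade. All are active mainly in young organs, a small part of a shoot with many grown leaves.

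Total counts per library ran from 17361433 to 27734410, so that 3 counts in a library correspond to 0.108 to 0.173 CPM, the usual unit of counts scaled by the library total. CUC2 itself, the gene named in both lines, had 779, 656 and 1062 counts in CUC2gm-4 1, 2 and 3, against 38, 11 and 23 in the cuc2-3 libraries and 13, 53 and 55 in the WT libraries. It averaged 35.8 ± 6.66 normalised CPM in the libraries labelled CUC2gm-4, 1.06 ± 0.600 in cuc2-3 and 2.03 ± 1.10 in WT (SD, n = 3 each; CPM after TMM scaling). That level goes against the description of CUC2gm-4 as a knockout, and cuc2-3 did not pass against WT (log2 fold change -0.95, adjusted p = 1.0 in edgeR). Without WT 1, the WT library with 13 counts, the estimate for cuc2-3 was -1.31 (SE 0.37). Its unadjusted p was then 0.00535 and its adjusted p 0.928 in edgeR. In each genotype the library numbered 1 was lowest in markers of the shoot meristem, and WT 1 stood apart from all others. The summed level of STM, KNAT1, CLV3 and WUS was 22.0, 42.8 and 47.1 normalised CPM in CUC2gm-4 1, 2 and 3. In the same order it was 23.2, 32.7 and 28.0 in the cuc2-3 libraries, against 3.61, 31.3 and 32.0 in the WT libraries. WT 1 also had the highest sum of the leaf markers RBCS1A, CAB1 and RCA, 59100 normalised CPM, against 22900 to 33200 in CUC2gm-4, 31300 to 42700 in cuc2-3 and 28000 to 31900 in WT 2 and 3. Within CUC2gm-4 and cuc2-3 the library numbered 1 was again the highest, at 33200 and 42700. Fold changes of the 6 genes against WT are therefore also given without WT 1, and those of other genes where its absence changes the sign or moves the value by more than the printed SE. CUC2gm-4 1 and cuc2-3 1 stay in those fits, so whatever the libraries numbered 1 share is then unbalanced between genotypes. The labelled tissue fitted its markers otherwise: 5 flower markers summed to at most 0.852 normalised CPM in any library, and the root markers WOX5, COBL9, EXPA7 and RHS2 summed to at most 4.69. In whole shoots, fewer cells of a type and less RNA per cell cannot be told apart.

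The 6 genes lie on all 5 chromosomes of the TAIR10.1 reference and overlap no other annotated gene there. EPFL2 spans chromosome 4, 17780729 to 17781813 on the plus strand, and LMI1 spans chromosome 5, 1004782 to 1006631 on the plus strand. JAG spans chromosome 1, 25684314 to 25686195 on the minus strand, and NUB chromosome 1, 4597567 to 4599141 on the plus strand. WOX1 spans chromosome 3, 6160733 to 6163453 on the minus strand, and PRS chromosome 2, 12262013 to 12263595 on the plus strand. The models used for counting are shorter than the exons of that reference. They cover 55.3% of the longest exon sum for LMI1 (710 bp of 1284 bp, little more than its coding length of 708 bp), 65.6% for EPFL2, 66.5% for WOX1, 72.9% for NUB, 84.3% for PRS and 97.6% for JAG. Reads from untranslated exons outside these models are not in the counts, if they were sequenced.

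The 300 bases before the annotated transcription start are shown for EPFL2, the member with the largest fold change against WT in the libraries labelled CUC2gm-4, and for NUB, whose 3 libraries labelled CUC2gm-4 lay apart from the 3 of cuc2-3. Between these genotypes 10.0% of all genes lay apart in either direction. The bases are printed 5′ to 3′ on the gene's strand, from the RefSeq TAIR10.1 sequence, at chr4:17780429-17780728 (plus strand) for EPFL2 and chr1:4597267-4597566 (plus strand) for NUB. Capitals mark CACG, the core of many NAC protein binding sites, read on both strands (CACG or CGTG).
EPFL2: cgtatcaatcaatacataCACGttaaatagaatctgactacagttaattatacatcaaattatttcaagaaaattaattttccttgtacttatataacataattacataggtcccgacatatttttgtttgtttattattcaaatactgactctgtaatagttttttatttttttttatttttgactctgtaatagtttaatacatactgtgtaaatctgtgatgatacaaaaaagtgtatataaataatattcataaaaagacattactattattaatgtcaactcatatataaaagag
NUB: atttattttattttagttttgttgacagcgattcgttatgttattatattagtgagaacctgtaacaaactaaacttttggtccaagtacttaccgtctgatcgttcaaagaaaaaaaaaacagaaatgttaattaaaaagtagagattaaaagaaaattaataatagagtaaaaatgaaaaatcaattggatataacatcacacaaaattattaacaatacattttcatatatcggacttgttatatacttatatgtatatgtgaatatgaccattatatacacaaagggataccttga
A match was found in EPFL2, starting 282 bases before the transcription start, and in LMI1, starting 24 bases before it, and in no other member. The same letters occur in 50.5% of the 300-base windows before 27443 protein-coding genes. CATGTG, another motif bound by NAC proteins, was searched on both strands too and had a match in JAG, 19 bases before the start, against 13.1% of all windows. These matches describe the letters in these windows and nothing about binding.

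All 6 genes were scarce, and EPFL2 was the most abundant of them per length in every library. On the scale of normalised CPM per kilobase of model (RPKM), EPFL2 averaged 10.7 ± 3.99 over the 9 libraries (SD), LMI1 4.65 ± 0.860, WOX1 3.90 ± 0.962, NUB 2.68 ± 1.11, JAG 1.51 ± 0.690 and PRS 0.361 ± 0.193. EPFL2 lay above LMI1 in 9 of 9 libraries and JAG above PRS in 9 of 9. The steps between them were less firm: LMI1 was above WOX1 in 6 of 9 libraries, WOX1 above NUB in 6 of 9 and NUB above JAG in 7 of 9. PRS had 2 to 18 counts in a library and reached 1 CPM in none, so it alone of the 6 fell short of the count minimum (1 CPM in at least 3 libraries) and was kept in the fit by name. Its values rest on 70 reads in all.

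**Figure D1:**
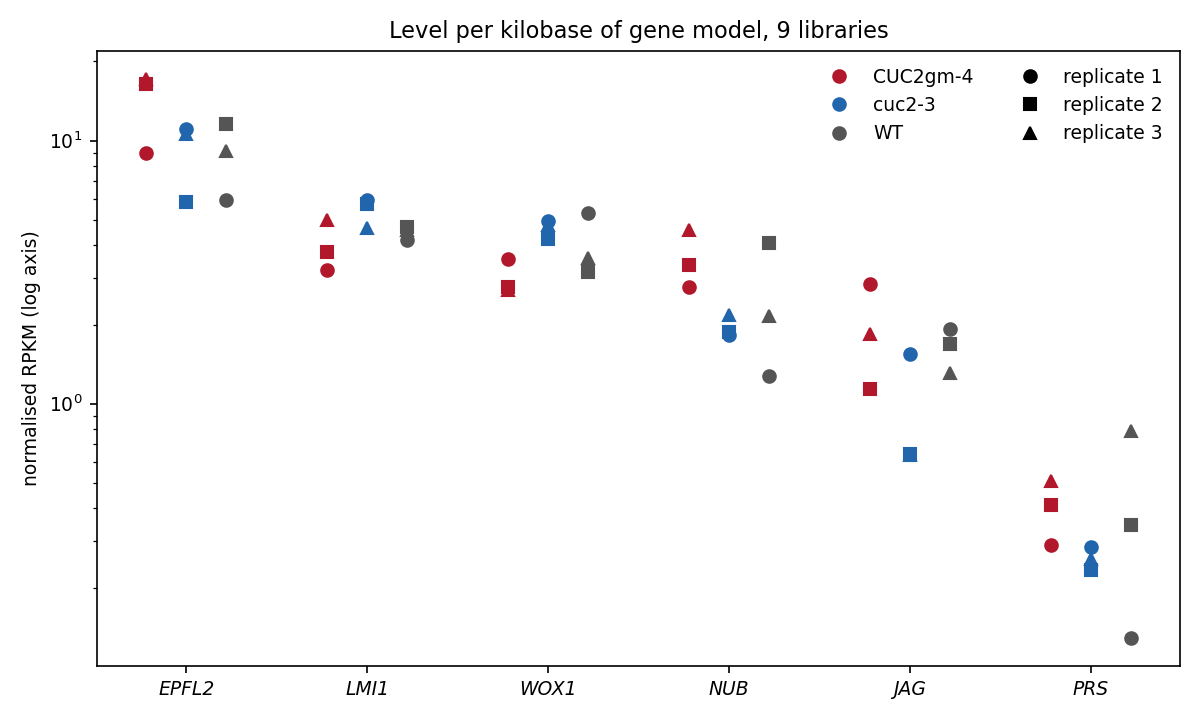
Normalised RPKM of the 6 genes (log axis) in each of the 9 libraries, ordered by mean level, with colour for genotype and symbol for replicate number. EPFL2 is highest in each library and PRS lowest in each, while the ranges of LMI1, WOX1, NUB and JAG overlap with their neighbours.

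EPFL2, the tooth-promoting peptide, had 5.26, 9.66 and 10.1 normalised CPM in CUC2gm-4 1, 2 and 3. The cuc2-3 libraries had 6.51, 3.44 and 6.25 and the WT libraries 3.49, 6.80 and 5.37. The top values were those of CUC2gm-4 2 and 3, while CUC2gm-4 1 lay within the range of WT. Each library labelled CUC2gm-4 exceeded the WT library of the same number, by 1.51, 1.42 and 1.88 times. The log2 fold change against WT was 0.67 (SE 0.34, 95% interval -0.085 to 1.43), a ratio of 1.59, and it did not pass in edgeR's quasi-likelihood test after Benjamini-Hochberg adjustment (unadjusted p = 0.0766, adjusted p = 0.795). Without WT 1 it was 0.45 (SE 0.36). In cuc2-3 against WT it was 0.052 (SE 0.35, interval -0.71 to 0.81) and -0.18 without WT 1. CUC2gm-4 against cuc2-3 gave 0.62 (SE 0.34), with the libraries numbered 2 and 3 higher and those numbered 1 lower (ratios of 2.81, 1.62 and 0.807).

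Of the 4 ERECTA family receptors and partners of such peptides, the 3 receptor kinases had positive estimates in CUC2gm-4 against WT, as did EPFL2 and 49.6% of all genes. ER, the founding receptor kinase of the family, had 268 ± 34.5 normalised CPM in the libraries labelled CUC2gm-4, 207 ± 13.1 in cuc2-3 and 197 ± 11.5 in WT. Its lowest library labelled CUC2gm-4 (232) lay above its highest WT library (206), as for ERL1 (9.31 against 6.97) and ERL2 (24 against 21.5). Of all genes, 11.6% had such a gap in either direction. For CUC2gm-4 against WT the log2 fold changes were 0.44 (SE 0.15) for ER, 0.64 (SE 0.17) for ERL1 and 0.55 (SE 0.15) for ERL2, and -0.26 (SE 0.26) for TMM, a receptor-like protein of the stomatal lineage. None passed in edgeR's quasi-likelihood test (smallest adjusted p = 0.529), although ERL1, ERL2 and ER had unadjusted p-values of 0.00305, 0.00418 and 0.0135. Of all genes, 6.48% had an unadjusted p below 0.05 in this comparison, and the receptors were not tested as a set. TMM was at -0.018 without WT 1. The 3 kinases were at 0.38, 0.65 and 0.50 (ER, ERL1, ERL2) without WT 1. The median of the 4 was 0.50, against -0.003 over all 18292 genes tested. For CUC2gm-4 against cuc2-3, ER, ERL1 and ERL2 were at 0.37, 0.41 and 0.36. Their unadjusted p-values in edgeR were 0.0302, 0.0329 and 0.0382, where 3.72% of all genes had one below 0.05, and none passed. For cuc2-3 against WT they were at 0.069, 0.23 and 0.19.

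Of 10 other EPF/EPFL peptides, 7 were tested and 0 passed in any comparison. EPFL9, known as stomagen, a positive signal for stomata, had 11.8 ± 1.95 normalised CPM in the libraries labelled CUC2gm-4, 13.9 ± 2.36 in cuc2-3 and 14.5 ± 0.974 in WT. EPF2, a negative signal for the stomatal lineage, had 7.79 ± 0.820 in the libraries labelled CUC2gm-4, 11.8 ± 3.92 in cuc2-3 and 11.9 ± 1.87 in WT, a log2 fold change against WT of -0.61 (SE 0.25, unadjusted p = 0.0334, adjusted p = 0.756 in edgeR). EPFL6 (CHALLAH) was at 0.006 (SE 0.23) and EPF1 at -0.61 (SE 0.28). The median of the 7 was -0.093 for CUC2gm-4 against WT, -0.056 for cuc2-3 against WT and -0.054 for CUC2gm-4 against cuc2-3. For CUC2gm-4 against WT the largest positive estimates in the family were those of EPFL2, at 0.67, and EPFL4, at 0.45 (SE 0.30), and without WT 1 both were at 0.45. EPFL4, chosen after its values were seen, also encodes a ligand of ERECTA.

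LMI1, the homeodomain-leucine zipper factor, varied least of the 6, with 1.84 times between its lowest and highest library. It had 2.29, 2.69 and 3.56 normalised CPM in CUC2gm-4 1, 2 and 3. Values were 4.22, 4.06 and 3.30 in cuc2-3 and 2.99, 3.34 and 3.25 in WT. The WT libraries were close together, with cuc2-3 3 among them, CUC2gm-4 1 and 2 below and the other libraries above. Its log2 fold changes were -0.17 (SE 0.25) for CUC2gm-4 against WT, 0.27 (SE 0.25) for cuc2-3 against WT and -0.44 (SE 0.25, unadjusted p = 0.109) for CUC2gm-4 against cuc2-3. None passed in edgeR, and without WT 1 those against WT were -0.22 and 0.21. LMI1 was higher in cuc2-3 than in WT in 3 of 3 same-numbered pairs, though by only 1.01 times for number 3. For this and the other genes, 3 pairs of one direction allow no p below 0.25 in a two-sided exact test over sign changes. Of 7 relatives and partners, WEE1 alone was tested; it encodes a kinase that delays entry into mitosis and is linked to LMI1 in stipules. WEE1 had 10.3 ± 1.62 normalised CPM in the libraries labelled CUC2gm-4, 9.13 ± 1.37 in cuc2-3 and 9.80 ± 2.13 in WT, and did not pass. The close homologues HB21, HB40, HB53 and HB22 had 35, 83, 86 and 81 counts over all 9 libraries, LFY, the floral regulator upstream of LMI1 in flowers, had 55 and CAL, a floral target, had 14. HB40 averaged 0.809 ± 0.575 normalised CPM in the libraries labelled CUC2gm-4, 0.237 ± 0.194 in cuc2-3 and 0.154 ± 0.169 in WT. HB21 had 0.392 ± 0.264, 0.0389 ± 0.036 and 0.0912 ± 0.109 in the same order. HB53 averaged highest in WT and HB22 in cuc2-3, and none of these homologues reached the count minimum.

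JAG was lower in cuc2-3 than in the other genotypes on average, with much spread. It had 3.49, 1.39 and 2.25 normalised CPM in CUC2gm-4 1, 2 and 3. The cuc2-3 libraries had 1.88, 0.79 and 0.781 and the WT libraries 2.37, 2.06 and 1.61. Each cuc2-3 library lay below its same-numbered partners in both other genotypes, but cuc2-3 1 lay above CUC2gm-4 2 and WT 3, so the groups overlap. The log2 fold changes were 0.25 (SE 0.43) for CUC2gm-4 against WT, -0.80 (SE 0.45, unadjusted p = 0.105) for cuc2-3 against WT and 1.05 (SE 0.44, 95% interval 0.070 to 2.03, unadjusted p = 0.0379, adjusted p = 1.0) for CUC2gm-4 against cuc2-3 in edgeR. The first is decided by CUC2gm-4 1, without which it was -0.13, and was 0.37 without WT 1. The second was -1.36 without cuc2-3 1 and -0.68 without WT 1. The third ranged from 0.67 without CUC2gm-4 1 to 1.60 without cuc2-3 1.

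NUB, the paralogue of JAG, was higher in each library labelled CUC2gm-4 than in any cuc2-3 library. Such a gap, in either direction, was found for 10.0% of all genes. NUB had 2.17, 2.64 and 3.56 normalised CPM in CUC2gm-4 1, 2 and 3. This compared with 1.42, 1.47 and 1.70 in cuc2-3 and 0.997, 3.18 and 1.69 in WT. The cuc2-3 libraries differed little, whereas WT spanned nearly the whole range, with WT 1 lowest of all 9. The log2 fold changes were 0.51 (SE 0.40) for CUC2gm-4 against WT, -0.35 (SE 0.41) for cuc2-3 against WT and 0.86 (SE 0.40, 95% interval -0.019 to 1.74, unadjusted p = 0.0543, adjusted p = 1.0) for CUC2gm-4 against cuc2-3 in edgeR. Against WT, NUB depended on the WT libraries: CUC2gm-4 was at 0.20 without WT 1 and 1.03 without WT 2, and cuc2-3 at -0.67 and 0.17.

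The balance between JAG and NUB varied more among the libraries of a genotype than between genotype means. JAG made up 61.7%, 34.6% and 38.7% of the reads of both genes in CUC2gm-4 1, 2 and 3, 56.9%, 35.0% and 31.4% in cuc2-3 and 70.4%, 39.4% and 48.7% in WT. The library numbered 1 had the highest share in each genotype. The exact 95% interval of a single share, which covers counting error only, was 53.1% to 69.8% in CUC2gm-4 1 and 24.3% to 46.0% in CUC2gm-4 2. Group means were 45.0% ± 14.6 in the libraries labelled CUC2gm-4, 41.1% ± 13.8 in cuc2-3 and 52.8% ± 15.9 in WT (SD, n = 3 each). Two-sided exact permutation tests gave p = 0.5 for CUC2gm-4 against WT, 0.5 for cuc2-3 against WT and 0.6 for CUC2gm-4 against cuc2-3, where 3 libraries against 3 allow no p below 0.1. Within same-numbered pairs the difference between CUC2gm-4 and WT was -8.67, -4.79 and -9.99 percentage points, and between cuc2-3 and WT it was -13.4, -4.36 and -17.3. The share was thus below WT in 3 of 3 pairs for both lines, with p = 0.25 for each in a two-sided exact test over all sign changes, the smallest p that 3 pairs allow. The unpaired mean difference between CUC2gm-4 and WT was -7.82 points, and 0.961 without WT 1, where the partner of that library stayed in. Without the whole pair numbered 1 it was -7.39.

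WOX1, a factor of the middle domain of the blade, was lower in each library labelled CUC2gm-4 than in any cuc2-3 library. A gap of this kind, in either direction, was found for 10.0% of all genes. WOX1 had 4.13, 3.24 and 3.15 normalised CPM in CUC2gm-4 1, 2 and 3. The cuc2-3 libraries had 5.73, 4.90 and 5.57 and the WT libraries 6.17, 3.68 and 4.14. The libraries labelled CUC2gm-4 were also below WT in 3 of 3 same-numbered pairs, although the groups overlap. The log2 fold changes were -0.41 (SE 0.25, unadjusted p = 0.136) for CUC2gm-4 against WT, 0.22 (SE 0.25) for cuc2-3 against WT and -0.62 (SE 0.25, 95% interval -1.18 to -0.071, unadjusted p = 0.0305, adjusted p = 1.0) for CUC2gm-4 against cuc2-3 in edgeR. Without WT 1, in which WOX1 was highest, the first was -0.17 and the second 0.45.

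PRS, the partner of WOX1, had 7, 8 and 12 counts in CUC2gm-4 1, 2 and 3. Values were 6, 4 and 7 in cuc2-3 and 2, 6 and 18 in WT. This is 0.390 ± 0.105 normalised CPM in the libraries labelled CUC2gm-4, 0.250 ± 0.0249 in cuc2-3 and 0.407 ± 0.324 in WT (SD, n = 3 each). At this depth no difference was detectable: the 95% intervals of the log2 fold change ran from -1.41 to 1.14 for CUC2gm-4 against WT, -2.11 to 0.60 for cuc2-3 against WT and -0.72 to 1.97 for CUC2gm-4 against cuc2-3. The libraries labelled CUC2gm-4 lay above those of cuc2-3 by as little as 0.281 against 0.275 normalised CPM. The estimate against WT turned on WT 3, being 0.72 in CUC2gm-4 and 0.090 in cuc2-3 without it, against -0.13 and -0.76 with it. Without WT 1 the values were -0.53 and -1.15.

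WOX1 made up 89.7% ± 3.61 of the reads of WOX1 and PRS in the libraries labelled CUC2gm-4, 95.6% ± 0.157 in cuc2-3 and 91.4% ± 6.77 in WT. The 3 shares in CUC2gm-4 (86.5% to 93.6%) lay below the 3 in cuc2-3 (95.4% to 95.7%), a difference of -5.85 percentage points with p = 0.1 in a two-sided exact permutation test, the smallest p possible here. WOX1 and PRS each lay apart between these genotypes, in opposite directions, so this p was fixed by those values and adds no evidence. The narrow range in cuc2-3 rests on 6, 4 and 7 PRS reads. The exact 95% intervals of single libraries overlap, for example 87.3% to 97.4% in CUC2gm-4 1 and 90.3% to 98.3% in cuc2-3 1. Against WT the differences were -1.66 points for CUC2gm-4 (exact p = 0.8; 1.66 points without WT 1) and 4.20 points for cuc2-3 (exact p = 0.4; 7.51 points without WT 1 and 0.742 without WT 3).

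Among 13 other WOX genes 3 were tested, and 0 passed in edgeR. WOX13 had 20.6 ± 4.12 normalised CPM in the libraries labelled CUC2gm-4, 18.2 ± 2.92 in cuc2-3 and 17.6 ± 3.98 in WT. WOX4, a gene of the vascular cambium, had 8.07 ± 2.23 in those labelled CUC2gm-4, 7.30 ± 2.03 in cuc2-3 and 5.93 ± 2.52 in WT. WOX5, best known from the root quiescent centre and also described at leaf margins, had 1.24, 1.34 and 0.532 normalised CPM in CUC2gm-4 1, 2 and 3. The cuc2-3 libraries had 1.97, 2.20 and 1.81 and the WT libraries 2.68, 2.67 and 3.17. The 3 genotypes did not overlap, and the libraries labelled CUC2gm-4 were lowest. Of all genes, 11.6% lay apart in CUC2gm-4 against WT, 10.0% in CUC2gm-4 against cuc2-3 and 5.53% in cuc2-3 against WT. Its log2 fold change in CUC2gm-4 against WT was -1.46 (SE 0.35), with an unadjusted p of 0.0018 and an adjusted p of 0.461 in edgeR's quasi-likelihood test, and -1.50 without WT 1. DESeq2 called it (adjusted p = 0.0460), and over 17 alternatives the adjusted p ranged from 0.0460 to 1.0. WOX5 was also on the list of root markers, whose other members COBL9, EXPA7 and RHS2 had 13, 2 and 192 counts over all 9 libraries; the part of root tissue was not tested. WOX14 had 106 counts, and the remaining 9 WOX genes had 3 to 31 counts.

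**Figure D2:**
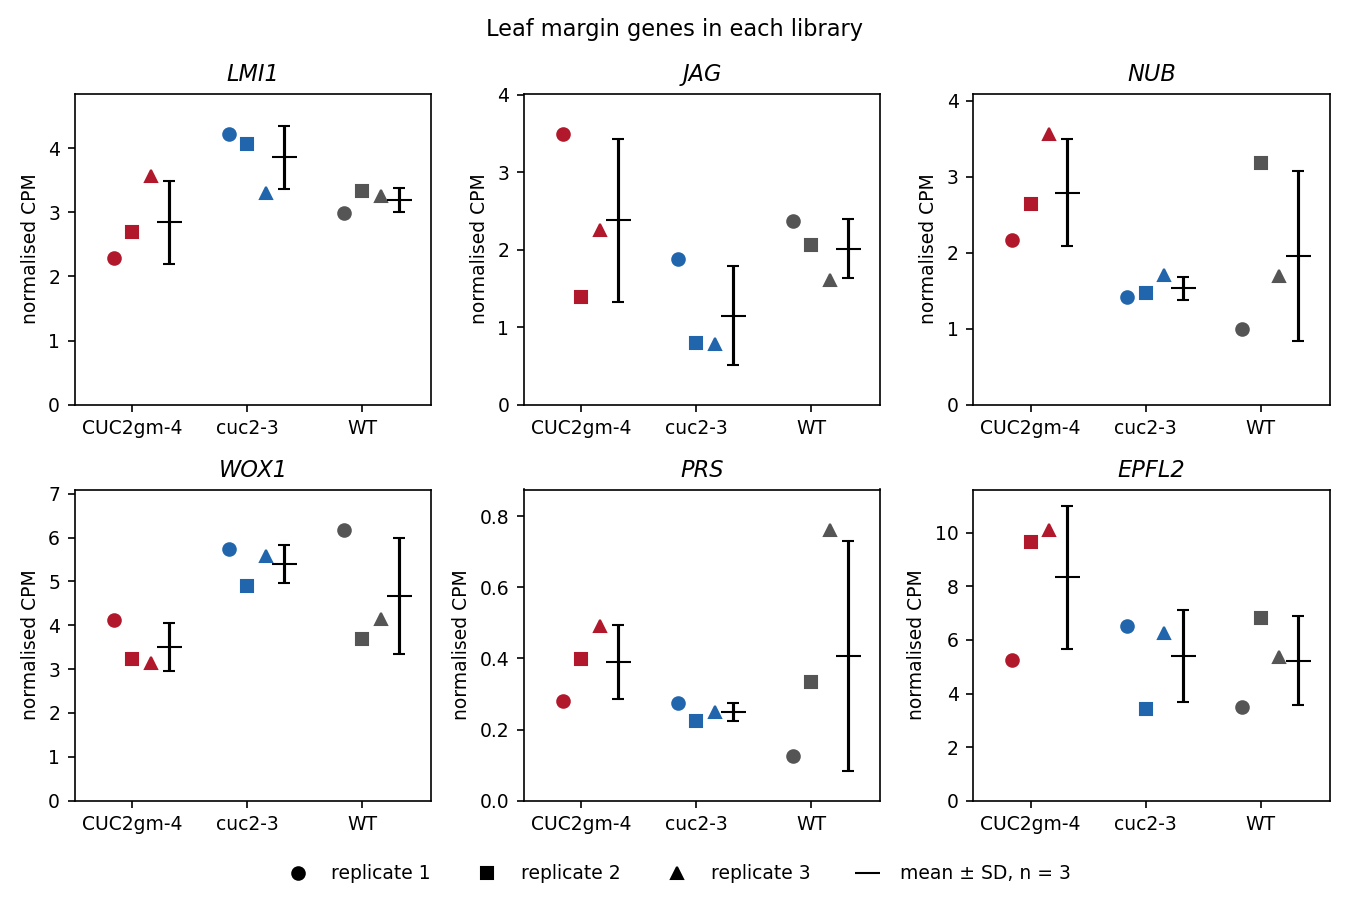
Normalised CPM of each gene (vertical axis from 0, own scale per panel) in the 3 libraries of CUC2gm-4, cuc2-3 and WT, with symbols for replicate number and black bars for mean ± SD (n = 3). NUB, WOX1 and, by a narrow margin, PRS in CUC2gm-4 lie apart from cuc2-3, whereas every gene overlaps between either line and WT.

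Set together, 0 of the 6 genes passed in any of the 3 comparisons by edgeR's quasi-likelihood test (Benjamini-Hochberg adjustment over all genes), nor did any in DESeq2 or with the replicate number as a block. Of the 18292 genes tested, the same test called 0.0164% for CUC2gm-4 against WT, 0.0219% for cuc2-3 against WT and 0.0164% for CUC2gm-4 against cuc2-3. With the block these were 0.186%, 0.0219% and 0.0383%. An unadjusted p below 0.05 was found for 0 members in CUC2gm-4 against WT (6.48% of all genes), 0 in cuc2-3 against WT (1.95%) and 2, JAG and WOX1, in CUC2gm-4 against cuc2-3 (3.72%). DESeq2 gave 0 (6.96% of all genes), 0 (1.91%) and 3 (4.07%) at that level, and after adjustment it called 0.422%, 0.0766% and 0.137% of all genes. The block gave 0 (10.9% of all genes), 1 (3.73%) and 3 (7.39%). With the block in edgeR, JAG had an unadjusted p of 0.0247 for cuc2-3 against WT. For CUC2gm-4 against cuc2-3, JAG, WOX1 and NUB had 0.00851, 0.0135 and 0.0342. The adjusted values were 0.998, 0.527, 0.587 and 0.658 in the same order. All 3 libraries lay apart for 0 members in CUC2gm-4 against WT (11.6% of all genes) and 0 in cuc2-3 against WT (5.53%). They lay apart for 3 in CUC2gm-4 against cuc2-3, NUB and PRS higher and WOX1 lower (10.0% of all genes). The comparisons share libraries, and the 6 genes are too few to set these shares against each other. In CUC2gm-4 against WT the 95% intervals of the ratio ran from 0.942 to 2.69 for EPFL2 and from 0.605 to 1.31 for LMI1, so a missing call does not show equal levels.

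**Figure D3:**
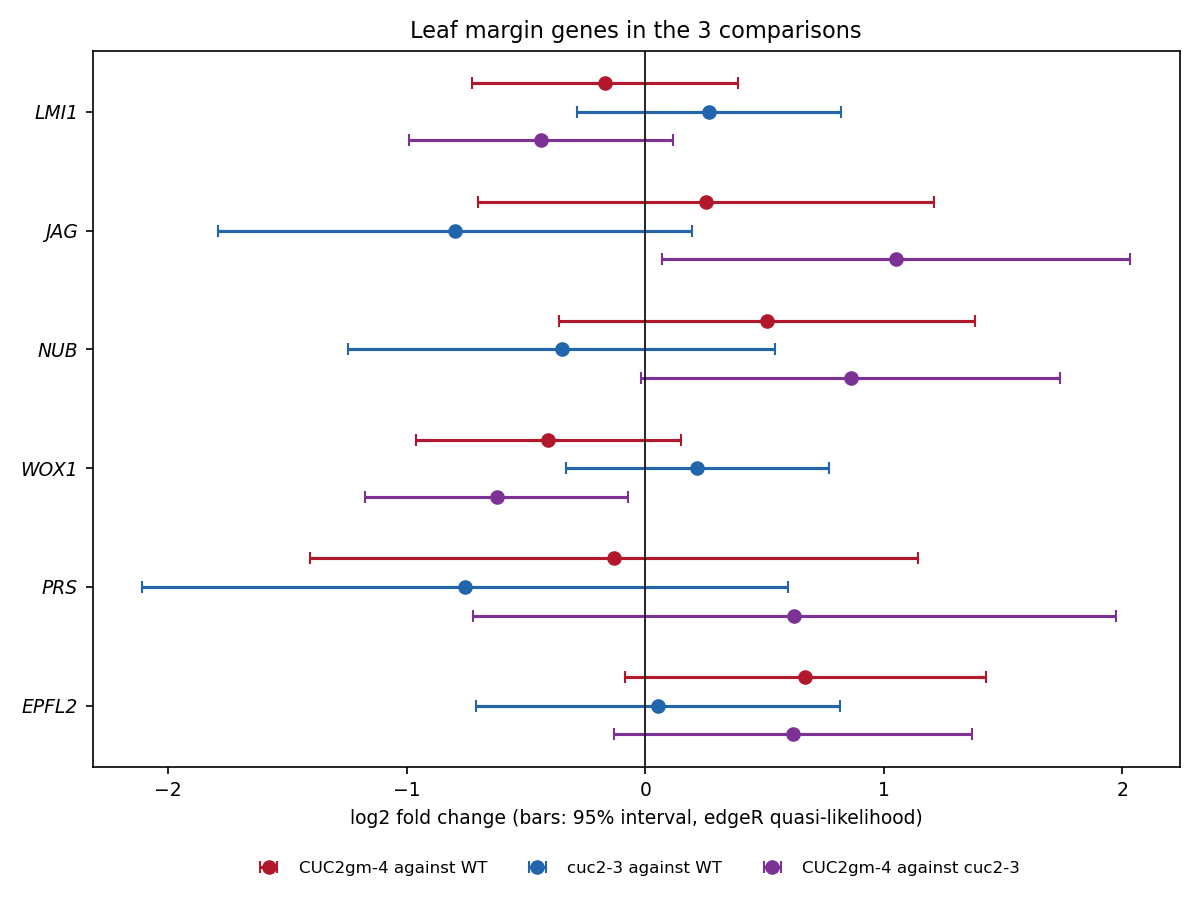
Log2 fold change of each gene (horizontal axis) in the 3 comparisons, with 95% intervals from edgeR's quasi-likelihood fit to all 9 libraries. The intervals of JAG and WOX1 for CUC2gm-4 against cuc2-3 leave out 0 before adjustment for 18292 genes, and those of PRS are the widest.

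Meristem marker levels ran alongside those of some of the 6 genes in some libraries and not in others. WT 1, lowest in STM (1.93 normalised CPM, against 19.2 and 20.2 in WT 2 and 3) and KNAT1 (1.50, against 11.9 and 11.4), was also lowest of the WT libraries in EPFL2, NUB, PRS and, by a little, LMI1. It was highest of the WT libraries in JAG and WOX1. CUC2gm-4 3 had the highest STM (31.5 normalised CPM) and the highest EPFL2 and NUB of all libraries. In contrast, cuc2-3 2 had the lowest EPFL2 of all 9 (-0.88 on the log2 scale against the mean of the 9) with STM at 0.05 and KNAT1 at 0.37 on that scale. STM averaged 24.4 ± 9.92 normalised CPM in the libraries labelled CUC2gm-4, 17.7 ± 2.92 in cuc2-3 and 13.8 ± 10.3 in WT, a log2 fold change for CUC2gm-4 against WT of 0.81 (SE 0.61), or 0.30 without WT 1, and it did not pass in edgeR. Of the 4 meristem markers, WUS and CLV3 had at most 5 and 9 counts in a library. The part of meristem content in the values of the 6 genes was not tested.

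**Figure D4:**
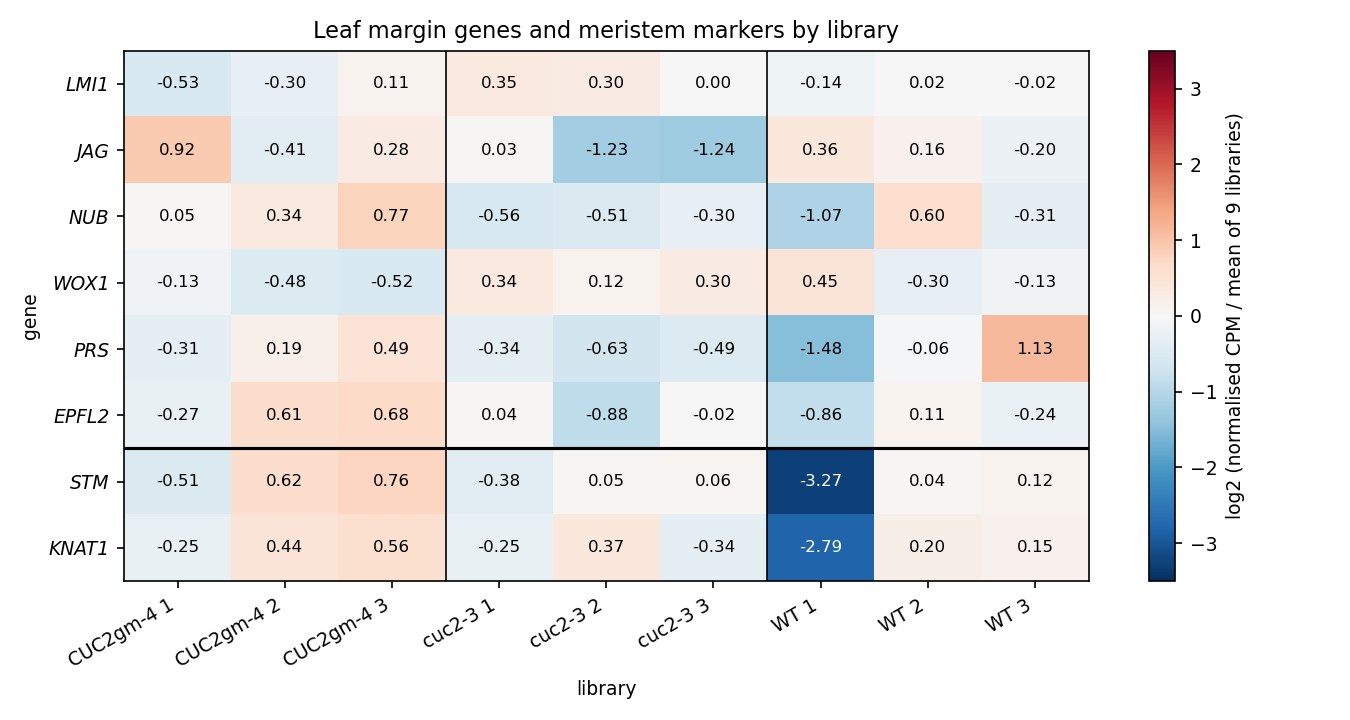
Log2 of normalised CPM over the mean of the 9 libraries for the 6 genes (above the line) and the meristem markers STM and KNAT1 (below it), by library. WT 1 is at -3.27 for STM and -2.79 for KNAT1, and is negative for EPFL2 (-0.86), NUB (-1.07) and PRS (-1.48) but positive for JAG (0.36) and WOX1 (0.45).

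Genes that work with JAG, WOX1 and PRS in blade outgrowth gave 0 calls among 13 tested in each comparison. Their median on the log2 scale was 0.030 for CUC2gm-4 against WT, -0.068 for cuc2-3 against WT and 0.027 for CUC2gm-4 against cuc2-3. Over all genes the medians were -0.003, -0.008 and 0.000. ARF2, an auxin response factor that limits organ growth, had 227 ± 35.4 normalised CPM in the libraries labelled CUC2gm-4, 223 ± 33.7 in cuc2-3 and 194 ± 23.8 in WT. AS1, a MYB factor that holds KNOX genes off in leaves, YAB3, a factor of the lower leaf side, and MP, an auxin response factor that acts upstream of WOX1, were at -0.096 (SE 0.19), -0.071 (SE 0.19) and 0.41 (SE 0.17) for CUC2gm-4 against WT. MP had an unadjusted p of 0.0382 in that comparison (adjusted p = 0.756 in edgeR). It was at 0.49 (SE 0.17, unadjusted p = 0.0174 in edgeR) for CUC2gm-4 against cuc2-3. For CUC2gm-4 against WT without WT 1, MP was at 0.29, and AS1 was at 0.035 and YAB3 at 0.073, these 2 with the sign turned. KRP2 and KRP4, cell cycle inhibitors named here because JAG is known to repress them, were at 0.051 (SE 0.24) and 0.030 (SE 0.29) there and at 0.20 (SE 0.24) and -0.13 (SE 0.29) for cuc2-3 against WT. In CUC2gm-4 against WT they were at -0.031 and -0.053 without WT 1, again with the sign turned. The ends of the list in CUC2gm-4 against WT were a pair of related cytochrome P450 genes of organ growth, chosen after their values were seen: CYP78A5 at 1.04 (SE 0.41, unadjusted p = 0.0294) and CYP78A7 at -1.52 (SE 0.50, unadjusted p = 0.0116). Without WT 1 they were at 0.60 and -1.86.

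Of 12 tooth patterning genes, 10 were tested and CUC2 alone passed, in both comparisons of CUC2gm-4. On the log2 scale it stood 4.12 (SE 0.42) above WT (adjusted p = 0.00761 in edgeR) and 5.06 (SE 0.45) above cuc2-3 (adjusted p = 0.00182). The call against WT was lost without CUC2gm-4 3 (3.96, adjusted p = 0.0596). NGA1, PID and NGA2 were at 0.099 (SE 0.25), -0.46 (SE 0.30) and 0.32 (SE 0.26) for CUC2gm-4 against WT, and NGA1 was at 0.36 without WT 1. The medians of the 10 were 0.28 for CUC2gm-4 against WT, 0.088 for cuc2-3 against WT and -0.028 for CUC2gm-4 against cuc2-3.

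**Figure D5:**
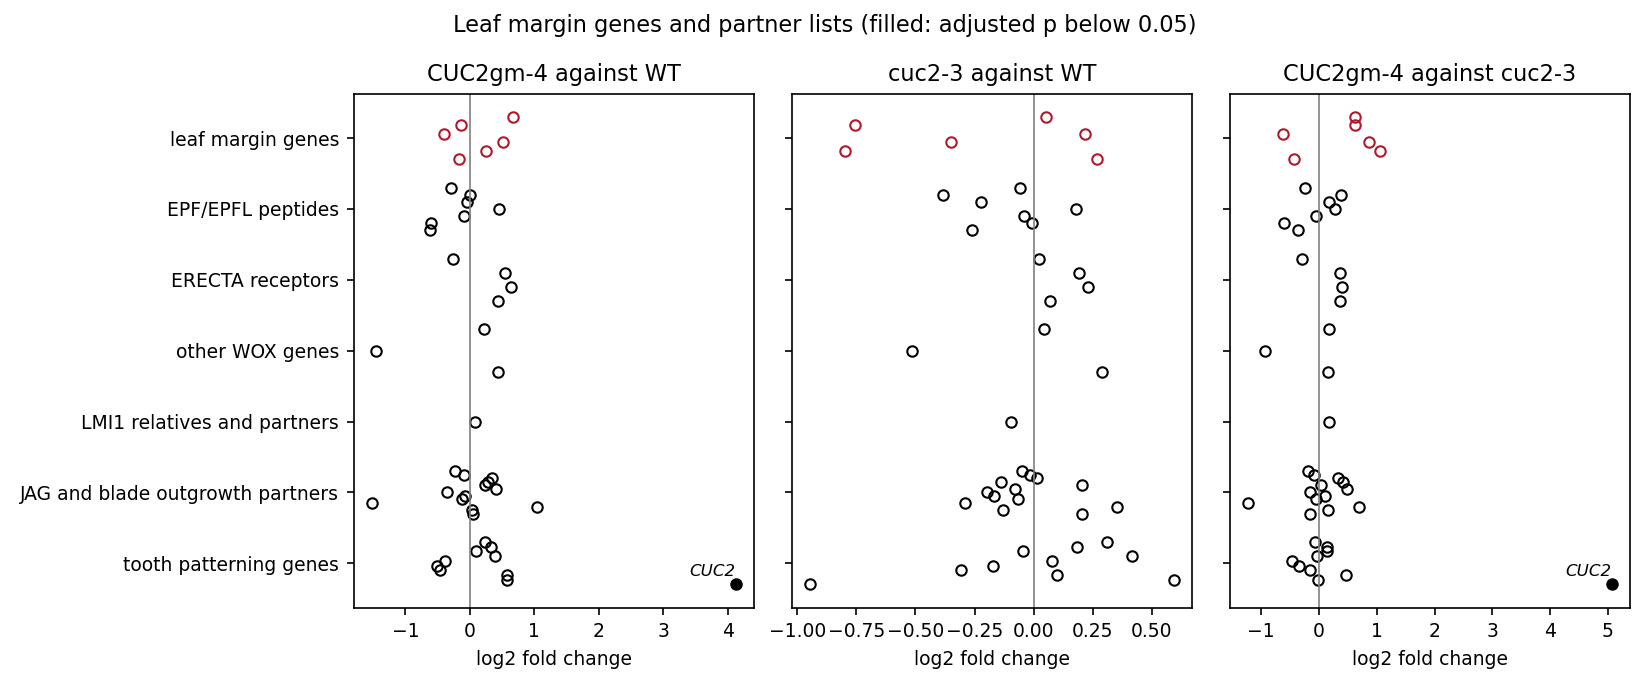
Log2 fold change (horizontal axis, own scale per panel) of the 6 leaf margin genes (red) and of the tested genes of 6 partner lists (black), 1 panel per comparison; filled points passed edgeR's test after adjustment over all genes. CUC2 is the single filled point, in the 2 panels with CUC2gm-4, and vertical spacing within a row has no meaning.

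For the 5 genes above the count minimum, the most similar profiles over the 9 libraries were looked up among all 18292 genes tested. Likeness is the root mean square difference between log2 profiles scaled to mean 0 and SD 1, so that 0 means the same profile. EPFL2 was nearest to AT2G25100 (0.219), of the ribonuclease H-like superfamily, and AT5G55530 (0.297), a lipid-binding protein gene. JAG was nearest to CYCA2;4 (AT1G80370, 0.259), an A-type cyclin, and AT3G07180 (0.289). CYCA2;4 had 24.8, 16.2 and 18.3 normalised CPM in CUC2gm-4 1, 2 and 3. This compared with 18.8, 13.6 and 14.6 in cuc2-3 and 19.3, 19.7 and 17.2 in WT, in proportion a smaller range than that of JAG. CYCA2;4 was picked as the nearest profile, so sharing the high CUC2gm-4 1 and the low cuc2-3 2 and 3 of JAG follows from the choice. JAG itself had 14 to 87 counts in a library. NUB was nearest to AT4G17760 (0.288), which encodes a protein with a PCNA domain. WOX1 was nearest to XCP1 (AT4G35350, 0.283), a xylem cysteine peptidase, and AT1G33080 (0.322), and LMI1 to AT3G56360 (0.396) and UBC30 (AT5G56150, 0.444). Among the 6 genes themselves EPFL2 and NUB were closest (0.592), at rank 211 of the genes nearest to EPFL2. JAG was at 1.18 from its nearest member, NUB, and WOX1 and LMI1 were each other's nearest at 1.12. These are descriptions over 9 libraries, with no test.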

How the data were processed

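RNA from above-ground parts was made into stranded single-end libraries from selected messenger RNA, sized at 230 bp, for the Ion Torrent Proton, per the labels' protocols. The authors counted reads per gene model with sam2pkm and removed reads with equally good alignments, per the file headers, and the deposited files hold whole-number counts, 1 file per library. The genome build is TAIR 10, per the submitters' processing notes. For the aligner, trimming and strand setting, the sources used here give nothing. Mapped reads minus removed reads equal the summed counts in each file.

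The counts were tested with edgeR 4.0.16 in R 4.3.3: TMM factors, genes with at least 1 CPM in at least 3 libraries plus CUC2 and the 6 genes, 18292 genes in all, and a quasi-likelihood fit of genotype to all 9 libraries. P-values were adjusted by Benjamini-Hochberg over all genes, threshold 0.05. The SE is the log2 fold change over the square root of F. DESeq2 1.42.0 was an alternative. Shares were tested by exact permutation of libraries, and intervals of shares are exact binomial (Clopper-Pearson). The scripts were tested on simulated data. Partner lists, 65 identifiers with the 6 genes, all matched; up to 4 members of a list were named by level, whatever their change, and others as they passed or as stated. Markers of leaf, meristem, flower and root were kept as lists as well. The 6 genes and the lists were chosen with earlier results of these data known. Gene positions, names and sequences are from RefSeq TAIR10.1. Some genes and sequences that these rules would name are not reported here.

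Genotypes share the replicate numbers 1 to 3. Deviations from the genotype mean gave r of 0.198 to 0.586 in the 9 pairs of libraries that share a number, against -0.478 to 0.188 in the 18 pairs that do not. The deviations of a genotype cancel out, so a positive r in same-numbered pairs pulls the others down, and these ranges are not independent. On these values the numbers were taken to pair the libraries in the replicate block and the paired shares. The labels do not say what a number marks. Unless the block is named, the SE, intervals and p-values of single genes are from the fit of genotype alone, which leaves pairing out. Libraries of a genotype differed beyond counting noise (chi-square per gene of 33.2 to 104), and none was treated as a repeat. Reads carry no molecular identifiers, so intervals and floors describe counting error alone.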

Additional observations from a re-analysis of the deposited data

How the results depend on the processing

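No setting tried, of 17 for each of the 18 fold changes of the 6 genes, gave any of them a call, and 295 of 306 values kept their direction. Some settings could hardly move a value, such as leaving out a library of the genotype not compared or changing the count minimum. EPFL2 for CUC2gm-4 against WT, at 0.671 in the main fit, was at 0.662 to 0.672 without single cuc2-3 libraries. The count of 295 is therefore no measure of how firm the directions are. The replicate block changed no call of the 6 genes (adjusted p from 0.471 to 0.998). For the shares, pairing by number was added after seeing the data and gave exact p-values of 0.25 to 0.5. Directions turned in the other 11. With the libraries numbered 1 and 2 alone PRS was at 0.515 for CUC2gm-4 against WT and 0.101 for cuc2-3 against WT, and EPFL2 at -0.0513 for cuc2-3 against WT. Leaving out single libraries gave ranges for CUC2gm-4 against WT of -0.131 to 0.519 for JAG and -0.526 to 0.716 for PRS, and for cuc2-3 against WT of -0.666 to 0.173 for NUB, -1.15 to 0.0899 for PRS and -0.175 to 0.286 for EPFL2. The JAG share then differed by -16.2 to 0.961 percentage points for CUC2gm-4 against WT and by -4.47 to 11.8 for CUC2gm-4 against cuc2-3, and the WOX1 share by -5.11 to 1.66 for CUC2gm-4 against WT.

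The count of all genes called moved more. For CUC2gm-4 against WT it was 77 in DESeq2, 9 with no count minimum, 34 with the replicate block, 6 with only the 2 genotypes compared, 20 with the libraries numbered 1 and 2 alone and 2 to 8 with single libraries left out, against 3. For cuc2-3 against WT it was 14 in DESeq2 and 8 with the libraries numbered 1 and 2 alone, against 4. For CUC2gm-4 against cuc2-3 it was 25 in DESeq2, 7 with the replicate block, 1 with the libraries numbered 1 and 2 alone and 2 to 4 with single libraries left out, against 3. Of the partner lists, the other WOX genes had 1 call in DESeq2 (WOX5), and the tooth patterning genes had 0 to 1 with single libraries left out and 0 for CUC2gm-4 against cuc2-3 with the libraries numbered 1 and 2 alone, where CUC2 did not pass. The causes were not tested. Where leaving out a library left 2 in a genotype, these were taken to vary like the others. Depth limits PRS most.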
